A study of Mus musculus with 20 samples.

Results

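Heat shock and endoplasmic reticulum (ER) stress chaperones were followed in the mouse hypothalamus as a set of 40 genes, chosen by symbol and found among 55471 genes in the count table through their GRCm38 annotation. The set holds 19 heat shock genes (cytosolic and mitochondrial chaperones, their co-chaperones and the factor Hsf1) and 21 ER stress genes (chaperones of the ER lumen, ER membrane proteins and the factors of the unfolded protein response). All 40 passed the filter on low counts that left 17893 genes for testing. The libraries were made from hypothalamus slices of wild-type C57BL/6 mice and fall into 3 groups, with no agent or allele other than the diet named in the labels. In 6 pair-fed libraries (RISP_PF) the mice had eaten a diet containing risperidone for 4 weeks in a limited amount, and in 7 ad libitum risperidone libraries (RISP_Ad.lib) they had eaten this diet freely. The 7 control libraries (CON_Ad.lib) came from mice fed a control diet freely. No pair-fed group on the control diet was analysed here, so that between pair-fed risperidone and control the drug and the amount of food cannot be told apart. Age and sex are not given in the labels, which leave it unsaid whether every library is a mouse of its own. The p-values therefore measure the spread between these libraries, which may be in part technical.

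Chaperones bind unfolded proteins and help them to fold. In the cytosol, proteins of the HSP70 and HSP90 families do this with J-domain proteins and nucleotide exchange factors, and heat shock factor 1 raises their transcription when unfolded proteins build up. In the ER, the HSP70 protein BiP (Hspa5) works with disulphide isomerases and lectin chaperones, and the unfolded protein response raises their transcription through the factors ATF6, XBP1 and ATF4. ER stress in the hypothalamus is known to dampen the action of leptin, the adipose hormone that limits feeding. Risperidone is an antipsychotic drug that blocks dopamine and serotonin receptors and is known to cause weight gain in patients.

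Total counts were between 17316043 and 18606543 in 19 libraries and 9748005 in ad libitum risperidone library 3, in which ribosomal RNA genes took 29.7% of the counts, against 2.44% to 5.73% in the others. This library had the lowest value of all 20 libraries in 14 of 19 heat shock members and 11 of 21 ER members, and results are therefore also given without it, as values without library 3. Leaving it out turned the sign of the fitted fold change in ad libitum risperidone against control in 10 of the 40 members, all 10 from a lower to a higher value, and in pair-fed against control in 1. Ad libitum risperidone library 1 had a mean of 5.88 log2 CPM over the markers of cortex, hippocampus and amygdala, against 1.94 to 3.57 in the other 19 libraries. The list of 12 hypothalamus markers was detected in all 3 groups. Summed levels were 1027 to 1487 CPM in pair-fed, 638 to 1458 CPM in ad libitum risperidone and 1347 to 1705 CPM in control libraries. This list includes Sf1, which in the mouse is the symbol of a splicing factor gene and not a hypothalamus marker. CPM is the count of a gene scaled to the size of its library. For single genes and mean log2 CPM this size was adjusted by TMM scaling. Sums over marker lists used the raw total count instead, ribosomal RNA included. In library 3, with a TMM factor of 0.731, such sums are therefore lower than on the scale of single genes. They can set the low ends of the ad libitum risperidone ranges. A fold change is the fitted log2 ratio of the first group named over the other. A negative value means a lower level in the first.

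Levels spanned a wide range within each class. Levels of different genes were compared only after division by exon length, as CPM per kb of annotated exon. On this scale the constitutive HSP70 gene Hspa8 had a median of 592 CPM per kb in control libraries, and the HSP90 genes Hsp90ab1 and Hsp90aa1 had 547 and 329 CPM per kb. The inducible HSP70 genes Hspa1a and Hspa1b were among the lowest heat shock members, with control medians of 3.14 and 3.54 CPM per kb. In the ER class the lectin chaperone genes Calr and Canx led with 155 and 99.3 CPM per kb, followed by Hspa5 with 95.9 CPM per kb. Trib3, a pseudokinase gene that ATF4 and CHOP are known to induce, was lowest with 0.294 CPM per kb.

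**Figure D1:**
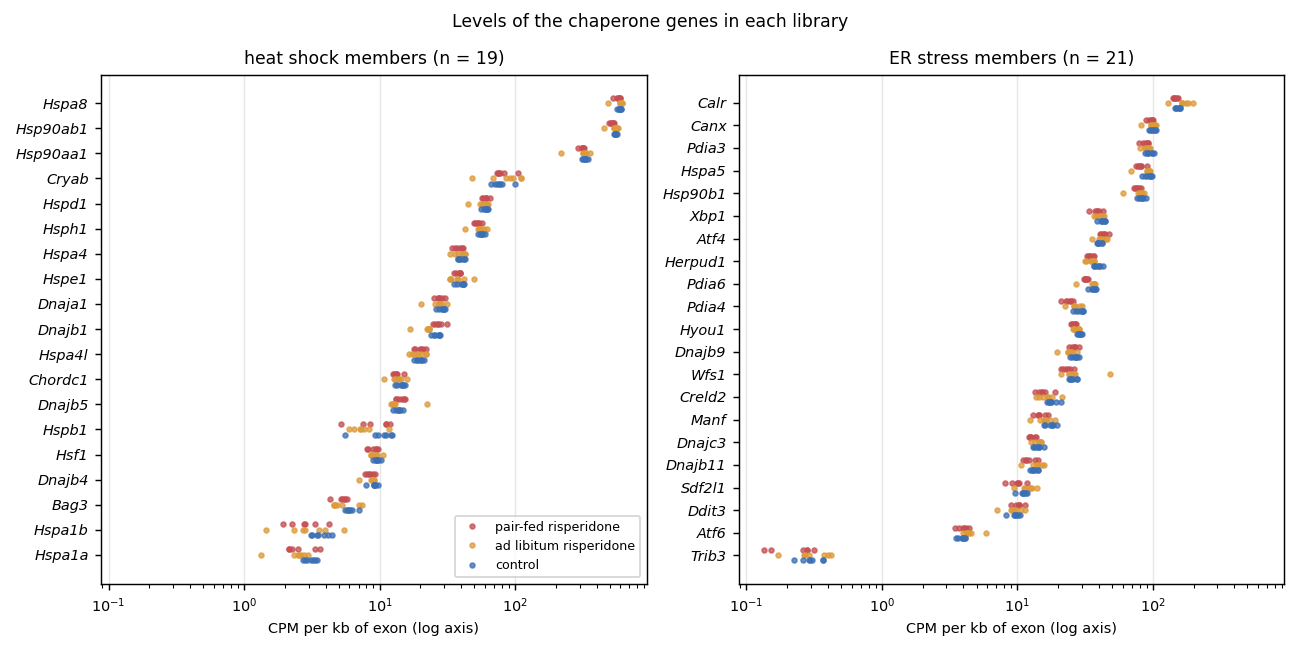
Level of each member in each library, as CPM per kb of exon on a log axis, with heat shock members on the left, ER stress members on the right, and 1 dot per library coloured by group. Members span the range between Trib3, with a control median of 0.294, and Hspa8, with 592, and the groups overlap in nearly every row.

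In pair-fed risperidone hypothalamus 1 of the 40 members fell against control, the disulphide isomerase gene Pdia4, and none rose, beside 0.436% of all tested genes that fell, 0.0503% that rose and 0.486% that were called in either direction. None of the 40 was called in ad libitum risperidone hypothalamus against control by edgeR, beside 0.0615% of all genes, and 7 had an unadjusted p under 0.05, 5 with lower values and 2 with higher values, beside 5.97% and 7.14% of all genes. DESeq2 called 2 members in that comparison, both with lower values, Dnajb1 and Herpud1, beside 0.4% of all genes that it called lower. Between the risperidone groups 1 member rose in pair-fed libraries, the J-domain gene Dnajb1, beside 0.112% of all genes that rose, and none fell, beside 0.285% of all genes. Averaged over the risperidone groups and set against control, no member was called by edgeR, beside 0.33% of all genes. There 10 of 40 had lower values at an unadjusted p under 0.05, beside 4.27% of all genes, and DESeq2 called 3, all lower, beside 0.652% of all genes that it called lower.

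Without ad libitum risperidone library 3, more ER members passed the test. In pair-fed against control, 3 members fell, which were Hspa5, Pdia4 and Pdia6, beside 0.578% of all genes. In pair-fed against ad libitum risperidone, Dnajb1 rose and Pdia6 and Calr fell, beside 0.118% of all genes that rose and 0.275% that fell. Ad libitum risperidone against control still had no call in either direction, beside 0.0168% of all genes that rose and 0.0449% that fell, and 4 members had higher and 3 lower values there at an unadjusted p under 0.05, beside 7.39% and 7.09% of all genes. In the mean of both risperidone groups Herpud1 fell, beside 0.415% of all genes. This library is no part of the comparison of pair-fed with control, and enters it through the estimate of the spread that the 3 groups share.

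**Figure D2:**
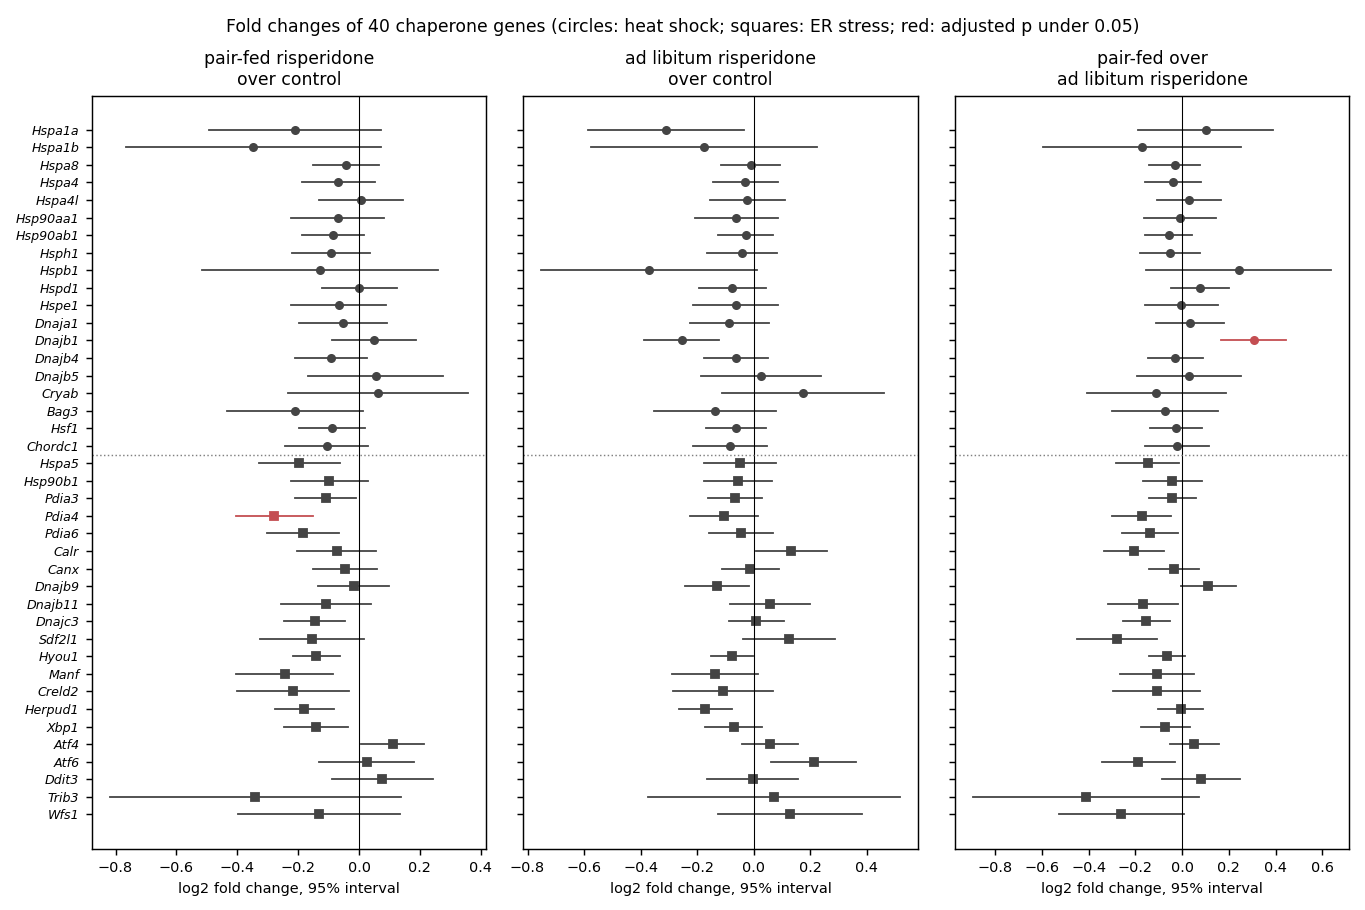
Fitted log2 fold changes of the 40 members with 95% intervals for pair-fed risperidone over control, ad libitum risperidone over control and pair-fed over ad libitum risperidone, from left to right, with all 20 libraries. Red marks an adjusted p under 0.05, which holds for Pdia4 at -0.28 in the left panel and Dnajb1 at 0.31 in the right panel.

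Most members of both classes had lower values in pair-fed than in control hypothalamus, and a difference between the classes was not tested. Of the 21 ER members 18 had lower values in pair-fed than in control libraries, with a median log2 fold change of -0.14, and 10 of these had an unadjusted p under 0.05. Of the 19 heat shock members 14 had lower values, with a median of -0.07, and none had an unadjusted p under 0.05. Over all genes tested 48.5% had lower values, the median was 0.00, and 3.6% had lower values at an unadjusted p under 0.05. The ER member with a higher value at an unadjusted p under 0.05, as had 3.06% of all genes, was Atf4. Without ad libitum library 3 the counts with lower values were 18 of 21 ER members and 15 of 19 heat shock members, and those with lower values at an unadjusted p under 0.05 were 12 ER and 3 heat shock members, beside 4.56% of all genes. Atf4 was again the member with a higher value at this threshold, beside 3.63% of all genes. Because a slice mixes many cells, fewer cells of a type and less RNA per cell cannot be told apart in any of these values.

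Markers of cell types also moved between pair-fed and control libraries, where none of the markers described here was at 0 in every library. All 6 oligodendrocyte markers had higher values in pair-fed, none at an unadjusted p under 0.05, with sums of 6986 to 9252 CPM in pair-fed and 6186 to 8520 CPM in control libraries. Microglia markers had higher values in 4 of 6, 2 of these at an unadjusted p under 0.05, with sums of 143 to 181 CPM in pair-fed and 134 to 181 CPM in control libraries. Endothelium markers had higher values in 4 of 6, 2 of these at an unadjusted p under 0.05, with sums of 151 to 185 CPM in pair-fed and 152 to 181 CPM in control libraries. The summed ranges of these lists overlapped. All 6 astrocyte markers had lower values in pair-fed, none at an unadjusted p under 0.05, with sums of 2016 to 2348 CPM in pair-fed and 2279 to 2380 CPM in control libraries. All 4 markers of oligodendrocyte precursors had lower values, 1 of these at an unadjusted p under 0.05, with sums of 153 to 180 CPM in pair-fed and 170 to 189 CPM in control libraries. Of the 12 genes on the hypothalamus list 9 had lower values, 1 of these at an unadjusted p under 0.05. Over all genes tested, 3.6% were lower and 3.06% higher at this threshold. Further marker lists, such as those of neurons, pericytes and fibroblasts, ependyma, tanycytes and choroid plexus, are not described for this comparison. The part of cell type markers in the values of the ER and heat shock members was not tested.

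The HSP70 and HSP110 family comprised 6 members, and none was called in any comparison. In the following, 3 values per group are the lowest, the median and the highest CPM. Hspa1a and Hspa1b encode the stress-inducible HSP70, lie close together on chromosome 17 and are near-identical copies, so that their counts are uncertain where reads match both, and exons of Hspa1a also overlap Gm20481 on the opposite strand. Hspa1a had 6.36, 7.08 and 10.8 CPM in pair-fed, 3.94, 7.51 and 8.82 CPM in ad libitum risperidone, and 8.05, 9.32 and 10.3 CPM in control libraries. Its log2 fold change was -0.21 ± 0.14 (SE) in pair-fed and -0.31 ± 0.13 in ad libitum risperidone against control, with adjusted p of 0.88 and 0.32. Without library 3, which held the low of 3.94 CPM, the lowest value in ad libitum risperidone was 6.96 CPM and the fold change against control was -0.24 ± 0.12. All 7 ad libitum risperidone libraries were below the control mean of Hspa1a, while 4 of 6 pair-fed libraries were.

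Hspa1b had 5.47, 7.84 and 11.9 CPM in pair-fed, 4.08, 7.93 and 15.3 CPM in ad libitum risperidone, and 8.74, 9.93 and 12.5 CPM in control libraries. It was the most variable member with all libraries, with an SD within groups of 0.43 on the log2 scale, against a median of 0.13 over the heat shock class. Without library 3 its SD was 0.36 and that of Hspb1 was higher, at 0.40. Its fold change of -0.35 ± 0.20 in pair-fed against control, the lowest of the 40, had an adjusted p of 0.85. The constitutive gene Hspa8 varied far less, with 2287, 2492 and 2576 CPM in pair-fed, 2082, 2580 and 2645 CPM in ad libitum risperidone, and 2427, 2545 and 2620 CPM in control libraries. Its fold changes against control were -0.04 ± 0.05 in pair-fed and -0.01 ± 0.05 in ad libitum risperidone, and without ad libitum library 3 they were -0.05 ± 0.04 and 0.03 ± 0.04. The nucleotide exchange factors of the HSP110 group, Hspa4, Hspa4l and Hsph1, had fold changes of -0.07 ± 0.06, 0.01 ± 0.07 and -0.09 ± 0.06 in pair-fed against control, none called. The SD of Hsph1 within groups was 0.11 on the log2 scale with all libraries and 0.07 without ad libitum library 3.

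Both HSP90 genes of the cytosol were slightly lower in value in pair-fed hypothalamus, and neither was called. Hsp90ab1, the constitutive gene, had 1477, 1566 and 1603 CPM in pair-fed, 1355, 1648 and 1721 CPM in ad libitum risperidone, and 1628, 1640 and 1708 CPM in control libraries. All 6 pair-fed libraries lay below all 7 control libraries, a separation found in this direction in 0.861% of all genes. The fold change was -0.09 ± 0.05 with an adjusted p of 0.83, and -0.09 ± 0.03 with an adjusted p of 0.39 without ad libitum library 3. Hsp90aa1, the inducible gene, had 1154, 1238 and 1275 CPM in pair-fed, 864, 1283 and 1414 CPM in ad libitum risperidone, and 1239, 1293 and 1368 CPM in control libraries. Its groups overlapped, and its fold changes against control were -0.07 ± 0.07 in pair-fed and -0.06 ± 0.07 in ad libitum risperidone. Without library 3 the second was 0.01 ± 0.04, with ad libitum libraries at 1241 to 1414 CPM.

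Dnajb1, the J-domain partner that delivers unfolded proteins to HSP70 and is a known target of heat shock factor 1, was the member that rose in pair-fed against ad libitum risperidone hypothalamus. The gene lies at chr8:83608193-83612653 on the plus strand (GRCm38). It had 79.2, 87.2 and 100.3 CPM in pair-fed, 53.7, 73.3 and 74.8 CPM in ad libitum risperidone, and 76.3, 87.5 and 89.9 CPM in control libraries. All 7 ad libitum risperidone libraries lay below all 6 pair-fed and all 7 control libraries, separations found in 0.263% and 0.224% of all genes, while pair-fed and control libraries overlapped. The fold change of pair-fed over ad libitum risperidone was 0.31 ± 0.07 (adjusted p = 0.041), and without library 3 it was 0.25 ± 0.05 (adjusted p = 0.022). Against control it was 0.05 ± 0.07 in pair-fed (adjusted p = 0.99) and -0.25 ± 0.06 in ad libitum risperidone (adjusted p = 0.13, and 0.10 without library 3).

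The call of Dnajb1 sits close to the threshold. It was lost when pair-fed library 1, 2, 4 or 5, ad libitum library 2, 4, 5, 6 or 7, or control library 1, 2, 3, 4, 5 or 7 was left out, with adjusted p between 0.0517 and 0.116 and fold changes between 0.26 and 0.32. In a fit of the compared groups alone the adjusted p was 0.20. Markers of cell types moved with the same contrast, of which only the ependyma list is described here. Of 6 ependyma markers 5 had an unadjusted p under 0.05 with higher values in pair-fed, and their sum was 50.2 to 72.0 CPM in pair-fed, 33.3 to 57.6 CPM in ad libitum risperidone and 56.4 to 66.9 CPM in control libraries, with no marker at 0. That marker count is from the fit with all libraries. In the fit without library 3, 1090 of all 17833 genes tested were higher at this threshold, so that the counts are not like for like. The lowest mean levels of the ependyma markers were in ad libitum libraries 1 and 2, at 2.29 and 2.63 log2 CPM. The part of these markers in the value of Dnajb1 was not tested. With the cortex marker level as a covariate the fold change was 0.33 and the adjusted p 0.026. That level stands out in ad libitum library 1, so that the covariate adjusts mostly for this library and does not test the mix of cells.

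The other J-domain genes of the class were not called. Dnaja1, whose exons overlap Smu1 on the opposite strand, averaged 240 ± 15.6 CPM in pair-fed, 234 ± 29.8 CPM in ad libitum risperidone and 249 ± 12.9 CPM in control libraries (SD, n = 6, 7 and 7). Without library 3 the ad libitum risperidone mean was 244 ± 16.5 CPM. Dnajb4 averaged 74.6 ± 4.74 CPM in pair-fed, 75.9 ± 6.27 CPM in ad libitum risperidone and 79.5 ± 5.01 CPM in control libraries, with an ad libitum mean of 78.2 ± 1.61 CPM without library 3. Dnajb5 averaged 84.8 ± 5.57 CPM in pair-fed, 83.1 ± 22.1 CPM in ad libitum risperidone and 81.7 ± 4.14 CPM in control libraries. The highest value of Dnajb5, 133 CPM, was in ad libitum risperidone library 1, the library with the high cortex markers. With the cortex marker level as a covariate its fold change in pair-fed over ad libitum risperidone was 0.24 (adjusted p = 0.055), against 0.03 without the covariate.

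Among the small heat shock proteins and other co-chaperones the groups overlapped throughout. Hspb1, which encodes a small heat shock protein that holds unfolded proteins without ATP, had 5.40, 10.1 and 12.4 CPM in pair-fed, 6.17, 7.46 and 12.2 CPM in ad libitum risperidone, and 5.76, 11.1 and 12.8 CPM in control libraries. Its fold change of -0.37 ± 0.18 in ad libitum risperidone against control had an adjusted p of 0.39. Bag3, a nucleotide exchange factor for HSP70 that directs clients to autophagy, had 11.0, 13.8 and 14.8 CPM in pair-fed, 11.7, 12.4 and 19.0 CPM in ad libitum risperidone, and 14.3, 15.2 and 17.9 CPM in control libraries. All 6 pair-fed libraries were below the control mean of Bag3, at a fold change of -0.21 ± 0.11 (adjusted p = 0.78). Chordc1, an HSP90 co-chaperone, had 93.7, 98.8 and 113 CPM in pair-fed, 80.7, 102 and 120 CPM in ad libitum risperidone, and 98.0, 110 and 115 CPM in control libraries. Its fold changes against control were -0.11 ± 0.07 in pair-fed and -0.08 ± 0.06 in ad libitum risperidone, and neither was called. Cryab, the alpha-B crystallin gene, averaged 121 ± 17.9 CPM in pair-fed, 130 ± 33.9 CPM in ad libitum risperidone and 116 ± 15.9 CPM in control libraries, and its exons overlap Hspb2 on the opposite strand.

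The mitochondrial chaperonin genes Hspd1 (HSP60) and Hspe1 (HSP10) face each other on chromosome 1 and share 112 bases of exon on opposite strands. Hspd1 had 152, 162 and 174 CPM in pair-fed, 118, 157 and 166 CPM in ad libitum risperidone, and 149, 162 and 168 CPM in control libraries, and its groups overlapped. Its fold change was 0.00 ± 0.06 in pair-fed and -0.08 ± 0.06 in ad libitum risperidone against control, the second of which was -0.03 ± 0.04 without library 3. Hspe1 averaged 56.2 ± 2.36 CPM in pair-fed, 56.1 ± 8.77 CPM in ad libitum risperidone and 58.8 ± 3.84 CPM in control libraries. The heat shock factor gene Hsf1 had 57.5, 65.5 and 69.6 CPM in pair-fed, 61.3, 62.6 and 75.2 CPM in ad libitum risperidone, and 63.9, 67.4 and 73.0 CPM in control libraries. These groups overlapped, and its fold changes against control were -0.09 ± 0.05 in pair-fed and -0.06 ± 0.05 in ad libitum risperidone, neither called.

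The classes differ in the letters of their promoters. The members were chosen by symbol as heat shock and ER stress genes, so that such a difference may be built into the choice. RefSeq promoter windows were matched for 32 of the 40 members, and the 250 bases before the annotated start were searched on both strands. Binding sites of heat shock factor 1 are built of inverted GAA units, written here as GAANNTTC or TTCNNGAA. At least 1 of these was in 6 of 14 heat shock members (Dnaja1, Hspa1a, Hspa1b, Hspb1, Hspe1 and Hsph1) and in none of 18 ER members, against 12.84% of all 32851 RefSeq windows. No window of Dnajb1 held either. The ER stress element that ATF6 is known to bind, CCAAT followed by 9 bases of any kind and CCACG, was in 7 of 18 ER members (Calr, Canx, Creld2, Dnajc3, Hsp90b1, Hspa5 and Pdia6) and in none of 14 heat shock members, against 0.11% of all windows. Its parts overlap it and are common alone, with CCAAT in 16 and CCACG in 11 of 18 ER members, against 33.85% and 28.34% of all windows. The sequence TGATGNAA of the ATF4 type was in 1 ER member, Herpud1, against 3.45% of all windows, and TGACGTGG of the ATF6 and XBP1 type was in none of the members, against 0.56%. A match is a description of the letters only.

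The windows of 4 ER members that were called or had small p-values are printed to show where the parts of the ER stress element lie, with capitals marking CCAAT and CCACG on either strand and, in Herpud1, the TGATGNAA match, each from RefSeq (GRCm38.p6), 5′ to 3′ on the strand of the gene. Hspa1b, added after its values were seen, is printed for the heat shock class, with capitals marking GAANNTTC. Pdia4 is chr6:47813513-47813762 (minus strand), Herpud1 is chr8:94386179-94386428 (plus strand), Sdf2l1 is chr16:17132384-17132633 (minus strand), Calr is chr8:84846935-84847181 (minus strand) and Hspa1b is chr17:34959239-34959488 (minus strand).
Pdia4: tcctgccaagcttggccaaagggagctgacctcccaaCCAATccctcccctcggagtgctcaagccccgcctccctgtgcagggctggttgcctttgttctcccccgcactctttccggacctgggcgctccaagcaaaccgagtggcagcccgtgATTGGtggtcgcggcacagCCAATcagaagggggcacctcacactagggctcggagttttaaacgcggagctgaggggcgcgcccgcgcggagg
Herpud1: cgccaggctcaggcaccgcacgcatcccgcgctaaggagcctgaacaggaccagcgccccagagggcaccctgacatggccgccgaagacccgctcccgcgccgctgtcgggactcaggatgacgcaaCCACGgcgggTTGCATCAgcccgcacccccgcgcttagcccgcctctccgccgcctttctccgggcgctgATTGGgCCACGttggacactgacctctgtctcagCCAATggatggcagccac
Sdf2l1: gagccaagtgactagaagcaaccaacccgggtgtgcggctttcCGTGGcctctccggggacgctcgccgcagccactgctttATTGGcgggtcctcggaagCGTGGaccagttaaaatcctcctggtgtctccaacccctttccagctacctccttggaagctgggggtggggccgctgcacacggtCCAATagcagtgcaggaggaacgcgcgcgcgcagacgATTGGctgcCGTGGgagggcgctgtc
Calr: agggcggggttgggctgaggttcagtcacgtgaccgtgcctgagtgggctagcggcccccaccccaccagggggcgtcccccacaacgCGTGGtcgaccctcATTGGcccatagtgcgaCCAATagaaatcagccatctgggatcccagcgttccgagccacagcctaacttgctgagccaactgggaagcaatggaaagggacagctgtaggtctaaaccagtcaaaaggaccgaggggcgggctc
Hspa1b: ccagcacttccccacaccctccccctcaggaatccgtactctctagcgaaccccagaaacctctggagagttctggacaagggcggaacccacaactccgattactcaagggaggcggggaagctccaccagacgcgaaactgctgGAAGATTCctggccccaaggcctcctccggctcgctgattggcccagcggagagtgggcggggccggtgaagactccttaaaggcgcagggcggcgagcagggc

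Positions count from -1, the last base before the annotated start, which is the last base printed except in Calr, whose printed stretch leaves out the 3 bases next to the start because they lie in an annotated exon of the gene. In Calr the full element lies on the opposite strand from position -162. In Herpud1 a CCAAT on the opposite strand at -52 is followed by CCACG at -46, and the match to TGATGNAA is on the opposite strand at -112. The Pdia4 window held CCAAT at -213, -94 and -75 and no CCACG, and the Sdf2l1 window held 3 of each. The Hspa1b window held its GAANNTTC at -104.

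Hspa5, which encodes BiP, the HSP70 of the ER and its most used marker of stress, was lower in value in pair-fed hypothalamus and was not called by edgeR with all libraries. The gene lies at chr2:34771970-34777547 on the plus strand. It had 319, 339 and 383 CPM in pair-fed, 291, 397 and 401 CPM in ad libitum risperidone, and 354, 406 and 415 CPM in control libraries. All 6 pair-fed libraries were below the control mean, and the groups overlapped. The fold change of pair-fed over control was -0.20 ± 0.06 (adjusted p = 0.34) and without library 3 it was -0.20 ± 0.04 (adjusted p = 0.037). Limma-voom with all libraries and edgeR on the compared groups alone also called it, with adjusted p of 0.026 and 0.034. Between the risperidone groups it was -0.15 ± 0.06 (adjusted p = 0.33), and -0.20 ± 0.05 (adjusted p = 0.056) without library 3. Ad libitum risperidone over control gave -0.05 ± 0.06, and 0.00 ± 0.04 without library 3.

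BiP and its 6 partners, with an HSP, J-domain or exchange role or, for Sdf2l1, another one, all had lower values in pair-fed than in control libraries. Of these 7, 3 had an unadjusted p under 0.05, beside 3.6% of all genes that were lower. The fold change of Dnajb9 there was between -0.04 and 0.005 over the 32 alternatives. Hyou1, an HSP110-type exchange factor of the ER, had 181, 190 and 197 CPM in pair-fed, 186, 202 and 207 CPM in ad libitum risperidone, and 199, 210 and 218 CPM in control libraries. With all libraries it was the least variable member, with an SD within groups of 0.05 on the log2 scale, while without library 3 Hsp90ab1, Hspa8 and Pdia6 varied less, at 0.04, 0.04 and 0.05. All pair-fed libraries lay below all control libraries, as in 0.861% of all genes. Its fold change against control was -0.14 ± 0.04 in pair-fed (adjusted p = 0.15) and -0.08 ± 0.04 in ad libitum risperidone (adjusted p = 0.37), and without library 3 it was -0.14 ± 0.04 (adjusted p = 0.079) and -0.07 ± 0.04 (adjusted p = 0.38). All 13 risperidone libraries were below the control mean. Dnajc3, a J-domain partner of BiP, had 62.4, 64.3 and 70.1 CPM in pair-fed, 65.2, 74.1 and 76.4 CPM in ad libitum risperidone, and 67.5, 72.5 and 81.1 CPM in control libraries. All 6 pair-fed libraries were below both other group means, at fold changes of -0.14 ± 0.05 against control and -0.15 ± 0.05 against ad libitum risperidone, with adjusted p of 0.38 and 0.19. Without library 3 they were -0.15 ± 0.05 against control and -0.17 ± 0.05 against ad libitum risperidone, with adjusted p of 0.28 and 0.16.

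Sdf2l1, a small protein that keeps BiP clients soluble, had 8.96, 11.2 and 13.0 CPM in pair-fed, 10.4, 13.7 and 15.4 CPM in ad libitum risperidone, and 10.6, 12.3 and 13.0 CPM in control libraries. It had the smallest p of the ER class between the risperidone groups, with a fold change of -0.28 ± 0.08 (adjusted p = 0.17), which was -0.32 ± 0.08 (adjusted p = 0.083) without library 3, and all 6 pair-fed libraries were below the ad libitum risperidone mean. Dnajb9, a J-domain protein that lets BiP bind the stress sensor IRE1, had 61.6, 67.5 and 72.2 CPM in pair-fed, 50.3, 62.9 and 70.2 CPM in ad libitum risperidone, and 62.1, 68.5 and 72.3 CPM in control libraries. It was the BiP partner with a higher value in pair-fed than in ad libitum risperidone libraries, at a fold change of 0.11 ± 0.06 in pair-fed over ad libitum risperidone (adjusted p = 0.39), and of 0.07 ± 0.05 (adjusted p = 0.50) without library 3. Dnajb11, another J-domain partner of BiP, had medians of 38.6 CPM in pair-fed, 45.1 CPM in ad libitum risperidone and 42.2 CPM in control libraries. Hsp90b1, the HSP90 of the ER, had 293, 309 and 330 CPM in pair-fed, 245, 325 and 346 CPM in ad libitum risperidone, and 306, 336 and 361 CPM in control libraries. Its fold change in pair-fed over control was -0.10 ± 0.06 (adjusted p = 0.44 without library 3) and was not called, and its exons overlap 1810014B01Rik on the opposite strand and small RNA genes on its own.

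All 3 disulphide isomerases, which form and rearrange disulphide bonds in new ER proteins, had lower values in pair-fed than in control libraries, and Pdia4 passed the test. Pdia4 lies at chr6:47796141-47813430 on the minus strand. It had 50.7, 57.5 and 61.9 CPM in pair-fed, 53.5, 63.5 and 71.9 CPM in ad libitum risperidone, and 61.5, 70.6 and 73.5 CPM in control libraries. Pair-fed libraries were below the control mean in 6 of 6 and reached just into the control range at their highest. The fold change was -0.28 ± 0.06 (adjusted p = 0.034) against control, and -0.17 ± 0.06 (adjusted p = 0.24) against ad libitum risperidone. Without library 3 the adjusted p against control was 0.0088. The call was lost when pair-fed library 1, 3, 4, 5 or 6 or control library 1, 2, 3, 4 or 7 was left out, with adjusted p between 0.0526 and 0.118 and fold changes between -0.29 and -0.25.

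Pdia6 had 116, 119 and 125 CPM in pair-fed, 101, 137 and 140 CPM in ad libitum risperidone, and 125, 138 and 144 CPM in control libraries. The pair-fed libraries were close together and barely touched the control range. Its fold change against control was -0.18 ± 0.06 (adjusted p = 0.30) with all libraries and -0.19 ± 0.03 (adjusted p = 0.0072) without ad libitum library 3. Against ad libitum risperidone it was -0.14 ± 0.06 (adjusted p = 0.31) and -0.19 ± 0.04 (adjusted p = 0.014). Pdia3, which acts on glycoproteins held by the lectin chaperones, averaged 275 ± 15.0 CPM in pair-fed, 284 ± 17.1 CPM in ad libitum risperidone and 297 ± 15.5 CPM in control libraries, and was not called.

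The lectin chaperones calreticulin (Calr) and calnexin (Canx) hold glycoproteins until they are folded. Calr had 407, 416 and 441 CPM in pair-fed, 375, 476 and 567 CPM in ad libitum risperidone, and 424, 446 and 460 CPM in control libraries. Apart from library 3 at 375 CPM, the ad libitum risperidone libraries lay above all others, between 470 and 567 CPM. With library 3 the groups overlapped, and the share of all genes separated in this way without it was not counted. The fold change in pair-fed over ad libitum risperidone was -0.21 ± 0.06 (adjusted p = 0.18), and without library 3 it was -0.26 ± 0.04 (adjusted p = 0.0079). Over control, ad libitum risperidone had 0.13 ± 0.06 (adjusted p = 0.35), and 0.18 ± 0.04 (adjusted p = 0.095) without library 3. Canx averaged 451 ± 20.4 CPM in pair-fed, 462 ± 36.9 CPM in ad libitum risperidone and 466 ± 20.3 CPM in control libraries. Its fold changes were -0.05 ± 0.05 in pair-fed over control, -0.01 ± 0.05 in ad libitum risperidone over control and -0.03 ± 0.05 in pair-fed over ad libitum risperidone. Without library 3 the ad libitum risperidone mean was 475 ± 15.6 CPM and these values were -0.05 ± 0.04, 0.03 ± 0.04 and -0.07 ± 0.04.

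**Figure D3:**
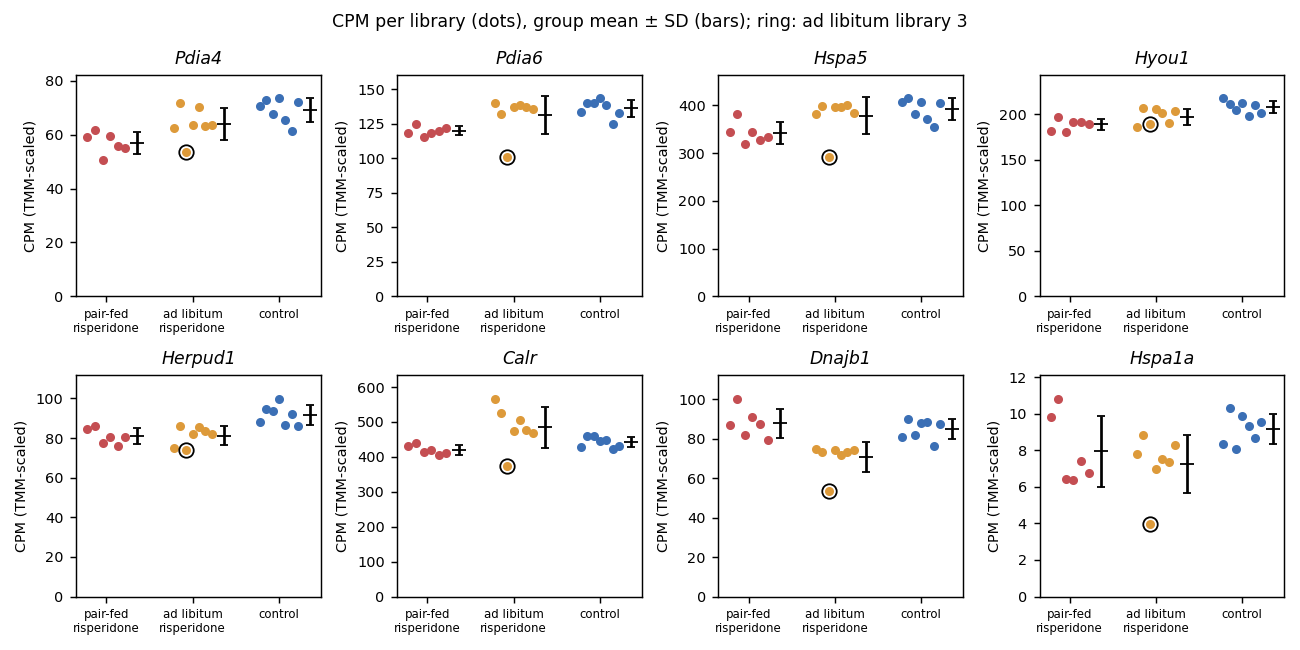
CPM in each library for 8 members, with pair-fed risperidone, ad libitum risperidone and control from left to right, each library as a dot, the group mean ± SD beside it and ad libitum library 3 ringed. Pdia4 is at 50.7 to 61.9 in pair-fed and 61.5 to 73.5 in control, and Dnajb1 is at 53.7 to 74.8 in ad libitum risperidone, below every other library.

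Herpud1 was the member with the smallest p in the average of both risperidone groups against control. It encodes an ER membrane protein of the machinery that sends misfolded proteins out of the ER for degradation, and lies at chr8:94386438-94395377 on the plus strand. It had 75.8, 80.7 and 86.3 CPM in pair-fed, 73.9, 82.1 and 86.1 CPM in ad libitum risperidone, and 86.2, 92.0 and 99.9 CPM in control libraries. All 13 risperidone libraries were below the control mean, and the ad libitum risperidone libraries lay just below the control range, as in 0.224% of all genes. The fold change against control was -0.18 ± 0.05 in pair-fed (adjusted p = 0.14), -0.17 ± 0.05 in ad libitum risperidone (adjusted p = 0.15) and -0.18 ± 0.04 for the mean of both (adjusted p = 0.055). Without library 3 the adjusted p of the mean was 0.044, and over the 20 fits that each left out 1 library it was between 0.0386 and 0.186. The 2 changes share the control libraries, and the risperidone groups differed by -0.01 ± 0.05.

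Of the other ER proteins, Manf, a secreted factor that protects cells under ER stress, had 45.8, 51.1 and 59.5 CPM in pair-fed, 43.7, 56.1 and 67.2 CPM in ad libitum risperidone, and 55.5, 63.4 and 69.1 CPM in control libraries. The groups overlapped, with all 6 pair-fed libraries below the control mean, at a fold change of -0.24 ± 0.08 (adjusted p = 0.31), and of -0.25 ± 0.07 (adjusted p = 0.13) without library 3. Exons of Manf overlap 4930524O07Rik and Dcaf1 on the opposite strand. Creld2, an ER resident protein linked to folding of secreted proteins, averaged 21.3 ± 2.61 CPM in pair-fed, 22.8 ± 3.46 CPM in ad libitum risperidone and 24.7 ± 2.09 CPM in control libraries. Wfs1, the gene of the ER membrane protein wolframin, averaged 88.5 ± 7.29 CPM in pair-fed, 106 ± 34.2 CPM in ad libitum risperidone and 96.9 ± 5.20 CPM in control libraries. Its highest value, 182 CPM, was in ad libitum library 1, where the summed cortex, hippocampus and amygdala markers were also highest, at 2290 CPM. In pair-fed over ad libitum risperidone Wfs1 had a fold change of -0.26 ± 0.13, and with the cortex marker level as a covariate it was 0.01.

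Of the 4 transcription factors of the unfolded protein response, Xbp1 had a lower and the other 3 a higher value in pair-fed than in control libraries, none called. The fold change of Atf6 there was between -0.01 and 0.06 over the 32 alternatives and changed sign in 1. Xbp1, whose mRNA the sensor IRE1 splices, had 110, 125 and 139 CPM in pair-fed, 119, 132 and 142 CPM in ad libitum risperidone, and 126, 138 and 144 CPM in control libraries, with a fold change of -0.14 ± 0.05 in pair-fed against control (adjusted p = 0.45). Gene counts do not tell spliced from unspliced Xbp1. Atf4, the factor translated when the sensor PERK slows protein synthesis, had 95.5, 102 and 112 CPM in pair-fed, 84.5, 97.2 and 109 CPM in ad libitum risperidone, and 91.5, 93.0 and 99.0 CPM in control libraries. Its 6 pair-fed libraries were all above the control mean, at a fold change of 0.11 ± 0.05 (adjusted p = 0.70). Ddit3, which encodes CHOP, had 15.4, 17.6 and 19.6 CPM in pair-fed, 12.1, 16.1 and 19.6 CPM in ad libitum risperidone, and 14.1, 16.5 and 17.8 CPM in control libraries. The groups of Ddit3 overlapped, with fold changes of 0.08 ± 0.08 in pair-fed and 0.00 ± 0.08 in ad libitum risperidone against control. Atf6, the gene of the ER membrane factor that is cut under stress, had 31.8, 37.1 and 40.6 CPM in pair-fed, 36.9, 39.4 and 54.6 CPM in ad libitum risperidone, and 32.4, 36.5 and 38.2 CPM in control libraries. The highest value was again in ad libitum library 1, and the fold change of 0.21 ± 0.07 in ad libitum risperidone over control (adjusted p = 0.24) was 0.11 with the cortex marker level as a covariate. Trib3 averaged 0.505 ± 0.16 CPM in pair-fed, 0.665 ± 0.19 CPM in ad libitum risperidone and 0.642 ± 0.113 CPM in control libraries, and was not called.

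The position of the whole set in ad libitum risperidone against control rested on library 3. With all libraries 17 of 19 heat shock members and 13 of 21 ER members had lower values, at medians of -0.06 and -0.05, beside 47.1% of all genes. Without library 3, 11 of 19 heat shock and 9 of 21 ER members had lower values, at medians of -0.03 and 0.00, beside 48.5% of all genes. In pair-fed against ad libitum risperidone 18 of 21 ER members had lower values, at a median of -0.11, beside 51.6% of all genes, and without library 3 the count was again 18 and the median -0.15, beside 50.8% of all genes. Among the heat shock members of that comparison 12 of 19 had lower values at a median of -0.02, and 13 at a median of -0.07 without library 3. Of the ER members with lower values in pair-fed than in ad libitum risperidone, 8 had an unadjusted p under 0.05, beside 7.44% of all genes, and without library 3 there were 10, beside 7.33%. In these 2 comparisons the ad libitum risperidone libraries are shared, and in both comparisons with control the control libraries are.

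**Figure D4:**
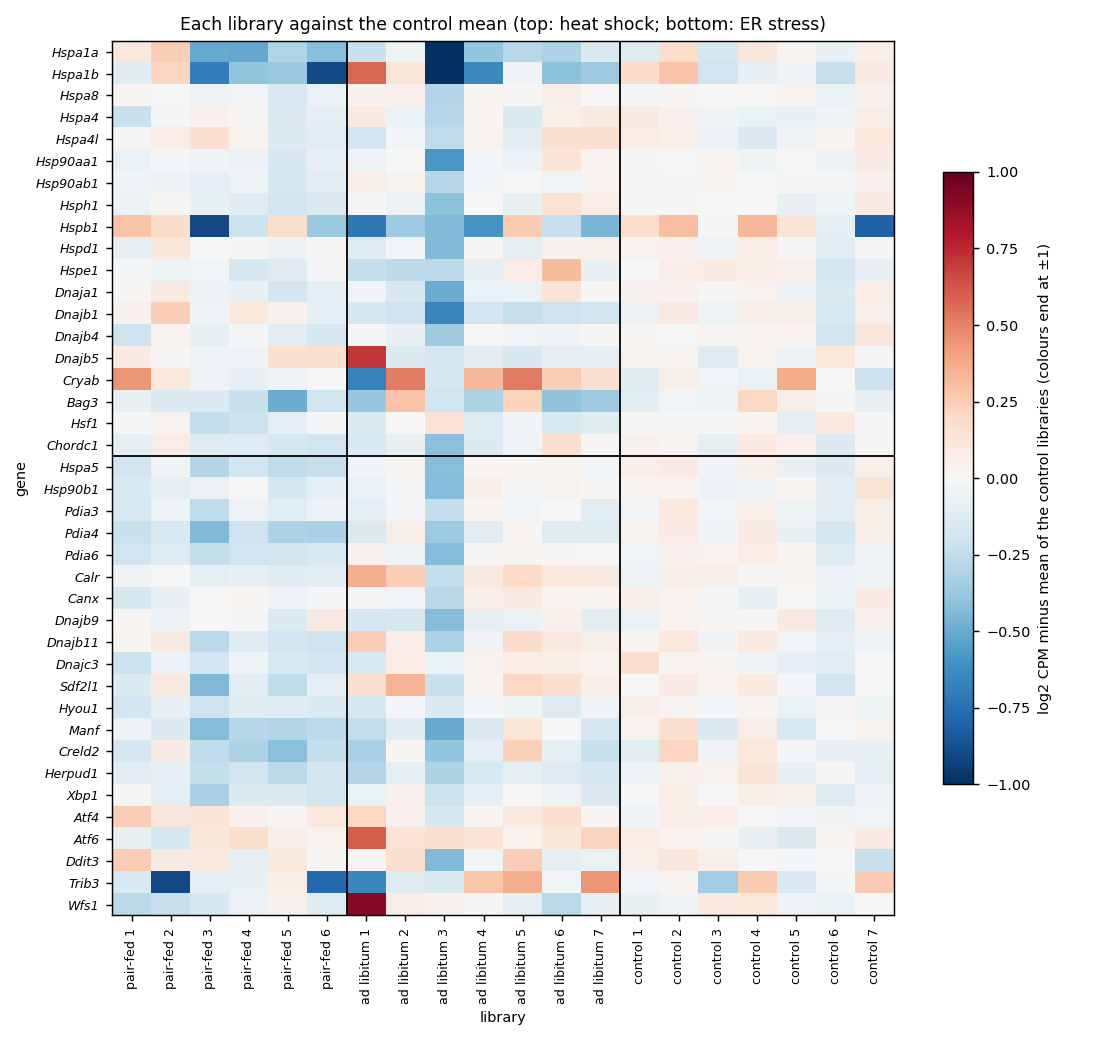
Log2 CPM of each member in each library minus the mean of the control libraries, with pair-fed, ad libitum risperidone and control libraries from left to right, heat shock members above and ER stress members below. Ad libitum risperidone library 3 is lowest of all 20 libraries in 14 of 19 heat shock and 11 of 21 ER members, and its values of Hspa1a and Hspa1b lie beyond the end of the colours.

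Libraries also moved as a whole within the other groups. Among controls, library 6 had the lowest value of its group in 10 of 19 heat shock and 11 of 21 ER members. Among pair-fed libraries, library 2 had the highest value in 10 heat shock and 10 ER members, and library 3 the lowest value in 9 ER members. With all libraries the median SD within groups over the members was 0.13 in the heat shock class and 0.11 in the ER class on the log2 scale.

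The rest of the pathway was followed in 9 lists of other proteostasis genes, with 122 genes listed and 115 tested. In pair-fed against control 1 of the 115 was called, Fkbp5 of the HSP90 list, which fell, beside 0.436% of all genes that fell. At an unadjusted p under 0.05, 8 had lower and none higher values, beside 3.6% and 3.06% of all genes, and without library 3 there were 11 with lower values, beside 4.56%. In pair-fed against ad libitum risperidone Fkbp5 fell and Atf3 rose, beside 0.285% of all genes that fell and 0.112% that rose. Fkbp5 fell as well in the average of the risperidone groups, beside 0.33% of all genes called in either direction. EdgeR called none of the 115 in ad libitum risperidone against control, with 12 at an unadjusted p under 0.05, all lower, beside 5.97% of all genes that were lower and 7.14% that were higher. Without library 3 these were 8 lower and 1 higher, beside 7.09% and 7.39% of all genes. Limma-voom called 1 with all libraries, beside 0.285% of all genes.

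Fkbp5, an HSP90 co-chaperone that is also a known target of glucocorticoid hormones, had 27.9, 30.8 and 40.5 CPM in pair-fed, 34.8, 46.4 and 64.6 CPM in ad libitum risperidone, and 50.9, 59.9 and 71.0 CPM in control libraries. All pair-fed libraries lay below all control libraries, as in 0.861% of all genes. Its fold change was -0.91 ± 0.12 in pair-fed over control (adjusted p = 0.00014), -0.34 ± 0.11 in ad libitum risperidone over control (adjusted p = 0.22) and -0.57 ± 0.12 in pair-fed over ad libitum risperidone (adjusted p = 0.032, and 0.049 without library 3). Atf3, a stress-induced factor downstream of ATF4, had 1.95, 2.73 and 3.79 CPM in pair-fed, 1.30, 1.55 and 1.88 CPM in ad libitum risperidone, and 1.63, 2.24 and 3.92 CPM in control libraries. All pair-fed libraries lay above all ad libitum risperidone libraries, as in 0.263% of all genes, and within the control range. The fold change over ad libitum risperidone was 0.83 ± 0.18 (adjusted p = 0.043). Without library 3 that adjusted p was 0.062.

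Apart from Fkbp5 and Atf3 no gene of the 9 lists was called by edgeR with all libraries in any comparison, and the members with the smallest p-values in pair-fed over control are named here. In the list of other ER folding genes, Pdia5 had a fold change of -0.35 in pair-fed over control (adjusted p = 0.075), and 11 of 21 tested genes had higher values there. Among the sensors and proteases of the unfolded protein response, Creb3l2 had -0.24 (adjusted p = 0.23), and 6 of 9 had lower values. Genes of ER associated degradation had Syvn1 at -0.11 and Derl3 at -0.39, with 10 of 15 lower. Of the 10 other HSP90 system genes 9 had lower values, with Stip1 at -0.10 behind Fkbp5, and 3 of 6 listed small heat shock genes were tested, with Hspb11 at -0.12 and Hspb8 at -0.10. Of 20 other HSP70 system genes 12 had lower values, with Hspa2 at -0.29 and Dnaja4 at -0.15. The cytosolic chaperonin TRiC had 6 of 8 subunit genes lower in pair-fed against control, none with an unadjusted p under 0.05, and Cct3 and Cct7 both at -0.05. Of 20 genes of the ATF4 pathway 10 had lower values, with Cebpb at -0.25 and Slc7a11 at 0.16, and of 9 other genes of the heat shock factor pathway 4 did, with Hmox1 at 0.12 and Serpinh1 at -0.13. The median fold change over all 115 genes in pair-fed against control was -0.02, against -0.14 in the ER members.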

How the data were processed

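The 40 members and the gene lists were chosen with earlier results of these data known. The authors deposited raw read counts, whole numbers for each gene in each library. The aligner STAR, featureCounts and DESeq2 with the builds GRCm38 and mm10 are named, per the submitters' processing notes; versions, annotation release and strand setting were not given in the sources used here, and counts of genes that overlap others on the opposite strand are uncertain. RNA was sequenced as paired reads of 150 bp, per the labels' protocols.

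Symbols and positions came from the GENCODE annotation of GRCm38, and 241 identifiers without a symbol held 0.00354% of the counts. Ddit3 matched 2 identifiers, of which the 105-base fragment was not used. All 20 libraries entered edgeR 4.0.16 (R 4.3.3), whose quasi-likelihood F test was run with TMM scaling, filterByExpr at a minimum count of 10 and 1 coefficient per group. Tests were two-sided, p-values were Benjamini-Hochberg adjusted over 17893 genes in each of 4 comparisons, and an adjusted p under 0.05 counted as a call. The common biological coefficient of variation was 11.3%. Log values used a prior count of 2. Errors are standard errors (SE) of fitted values or standard deviations (SD) between libraries. The procedure was tested on simulated data.

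Members described with lowest, median and highest values were 11 fixed genes, every called member and the 4 with the smallest p per class and comparison. Libraries of a group differed by more than sampling noise, with chi-square per degree of freedom of at least 2.64 in 57 pairs. The alternatives comprised DESeq2 1.42.0, limma-voom (limma 3.58.1), other scalings and filters, covariates and leaving out libraries, 32 in all. Protein sequences were not used here.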

Additional observations from a re-analysis of the deposited data

Results flagged for a closer look

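Values that stood far from the rest of their own group were looked for in the 120 groups of libraries formed by 40 members and 3 groups, and 21 were found, where chance gives about 1 in 20 groups. Of these, 12 were the lowest value of ad libitum risperidone library 3, the library with the low total count and the high share of ribosomal RNA. They were Hspa1a at 3.94 CPM, Hspa8 at 2082 CPM, Hsp90aa1 at 864 CPM, Hsp90ab1 at 1355 CPM, Hsph1 at 308 CPM, Hspd1 at 118 CPM, Dnajb1 at 53.7 CPM and Dnajb4 at 62.1 CPM in the heat shock class. In the ER class they were Hspa5 at 291 CPM, Hsp90b1 at 245 CPM, Pdia6 at 101 CPM and Canx at 385 CPM.

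In ad libitum risperidone library 1, the library with high markers of cortex, hippocampus and amygdala, 3 members stood above the rest of their group, Dnajb5 at 133 CPM, Atf6 at 54.6 CPM and Wfs1 at 182 CPM. In pair-fed risperidone Cryab stood high in library 1 at 156 CPM and Bag3 stood low in library 5 at 11.0 CPM. Among controls Hspb1 at 5.76 CPM and Ddit3 at 14.1 CPM stood low in library 7, and Dnajb4 at 69.2 CPM and Sdf2l1 at 10.6 CPM stood low in library 6.

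The change of Dnajb1 against control differed between the risperidone groups, with a log2 difference of 0.31 between pair-fed and ad libitum risperidone that passed the test.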

How the results depend on the processing

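The 8 class medians moved by less than the spread between libraries under all 32 alternatives. This is a wide margin, with an SD of the class mean of 0.10 for heat shock, above all heat shock medians, and 0.07 for ER. The ER median in ad libitum risperidone against control changed sign, between -0.07 and 0.01. So did the heat shock median in pair-fed against ad libitum risperidone, between -0.07 and 0.01. No called member changed sign. Counts of calls depended on the setting, and the cause was not tested where no reason is given. For pair-fed and then ad libitum risperidone against control, then between the risperidone groups, then for their mean against control, leaving out 1 library at a time gave 0 to 3, 0 to 0, 0 to 3 and 0 to 1 called members, 66 to 166, 0 to 35, 39 to 130 and 36 to 99 called genes, and 1 to 2, 0 to 0, 0 to 2 and 1 to 1 called other proteostasis genes. Without a filter on low counts, which adds genes to the adjustment, 0 members were called in pair-fed against control and 0 in pair-fed against ad libitum risperidone. With a mean of at least 1 CPM 1 member, Herpud1, was called in the mean comparison.

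Called members in pair-fed against control numbered 3 with DESeq2, and 6 with limma-voom, in a fit of the compared groups alone and without ad libitum libraries 1 and 3; called genes there numbered 134, 223, 245 and 250, and 144 with the cortex covariate. Called other proteostasis genes there numbered 3 with limma-voom, 3 in the fit of the compared groups alone, 2 with the cortex covariate and 4 without libraries 1 and 3. In ad libitum risperidone against control DESeq2 called 2 members and 102 genes, limma-voom 51 genes and 1 other proteostasis gene, the compared groups alone 3 genes, the cortex covariate 17 genes, and the fit without libraries 1 and 3 called 48 genes and 1 other proteostasis gene. In pair-fed against ad libitum risperidone DESeq2 called 172 genes, limma-voom 2 members and 139 genes, the compared groups alone 0 members, 31 genes and 1 other proteostasis gene, the cortex covariate 122 genes and 0 other proteostasis genes, upper quartile scaling 1 other proteostasis gene, and the fit without libraries 1 and 3 called 5 members, 142 genes and 1 other proteostasis gene. In the mean comparison DESeq2 called 3 members and 101 genes, limma-voom 2 members, 151 genes and 2 other proteostasis genes, the compared groups alone 18 genes and 0 other proteostasis genes, the cortex covariate 2 other proteostasis genes, and the fit without libraries 1 and 3 called 1 member and 193 genes.

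No pairing by library number was seen: deviations of same-numbered libraries had a mean correlation of -0.01 over 19 pairs, with 2 over 0.1. Pairs of other numbers had a mean of 0.001 over 114 pairs, with 16 over 0.1. A pairing carried by anything other than these numbers was not tested. With the replicate block, 1 gene was called in ad libitum risperidone against control and 0 other proteostasis genes in pair-fed against ad libitum risperidone; Pdia4 had an adjusted p of 0.026 and Dnajb1 of 0.027. The lowest member was Trib3, below 1 CPM.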
